A study of Homo sapiens with 2 samples.

Results

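The epidermal differentiation complex is a gene cluster of human chromosome 1 that encodes much of the outer shell of the skin. Its members were taken as the protein-coding genes lying between positions 151900000 and 153700000 (build hg38) whose symbols begin with LCE, SPRR or S100A, together with FLG, FLG2, HRNR, TCHH, IVL and LORICRIN. They numbered 52 of the 19839 protein-coding genes of chromosomes 1 to 22 and X in the gene table used here. There were 19 LCE genes, 11 SPRR genes, the pair IVL and LORICRIN, 4 genes of the fused S100 type (FLG, FLG2, HRNR and TCHH) and 16 S100A genes. The choice used position and name only, and no measured value.

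Chromatin accessibility had been measured by ATAC-seq, in which a transposase cuts DNA where it is not covered by nucleosomes, so that sequenced fragments pile up over open chromatin. There were 2 groups with 1 library each, both from the human embryonic stem cell line WIBR3. The first was labelled hTBLC, the name used for human totipotent blastomere-like cells, and the series' title ties it to repression of the spliceosome. The other was labelled primed, which names the usual cultured state of such lines. Both carry the cell type hESC in the labels, and no agent, dose, time, passage or clone is given in the sources used here. With 1 library in each group there was no measure of the spread between cultures, so no test between the groups was made. All intervals below are 95% intervals for counting error only.

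During the last steps of keratinocyte differentiation, the plasma membrane is replaced from within by the cornified envelope, a layer of proteins that transglutaminases cross-link to each other. Involucrin (IVL) is laid down early as a scaffold, loricrin (LORICRIN) makes up much of the finished envelope, SPRR proteins act as cross-bridges, and LCE proteins are added late. Filaggrin (FLG) and its relatives bind keratin filaments beneath the envelope. The S100A genes at either side of the cluster encode small calcium-binding proteins, several of which are made in many tissues besides skin. Neither pluripotent state is a skin cell, and the envelope genes are known chiefly from differentiated keratinocytes.

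The deposited peak lists held 299673 hTBLC and 295753 primed peaks, and 137 hTBLC and 128 primed peaks had their summit inside the cluster. Peaks that overlapped or touched within a library were joined into regions, which gave 106 hTBLC and 100 primed regions in the cluster, of 250859 hTBLC and 242009 primed regions in all. The strength of a region is given as its pileup, the number of fragments stacked at the summit of its strongest peak, which was solved from the fold enrichment and p-value in the list. Fold enrichment is the authors' ratio of that pileup to the local background of the same library. The lists end at different thresholds, with a lowest -log10 p of 2.83 in hTBLC and 2.0 in primed, and the lowest pileup listed was 7 in hTBLC and 6 in primed. The last rank is 300000 in the hTBLC list and 296005 in the primed list, and whether a list was capped at a number of peaks is not given in the sources used here. A gene without a region therefore had no signal above these limits, which is not a measurement that it was closed. As a check of the labelled cell type, 6 of 7 pluripotency genes in the gene table had a start region in both libraries, and POU5F1 had one in primed only (pileup 37). Of 9 keratinocyte and surface ectoderm genes, 5 had a start region in both libraries (KRT5, KRT8, KRT18, DSG3 and DSC3), TP63 had one in primed only, and KRT14, KRT1 and KRT10 had one in neither. Of 8 fibroblast genes, 5 had one in both (COL1A1, COL1A2, PDGFRB, DCN and LUM), COL3A1 and POSTN had one in hTBLC only, each with a pileup of 14, and THY1 had one in neither. Over all protein-coding genes, 78.5% had a start region in both libraries, so a start region alone does not mark a cell type. The part of other cell types in the results below was not tested.

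At their starts, most genes of the cluster had no listed open region in either state. A gene start counted as open in a library when a region came within 1 kb of it. By this rule 9 of 52 members were open in hTBLC, against 80.9% of all protein-coding genes. In primed 9 of 52 members were open, against 81.5% of all protein-coding genes. Regions were present in both libraries at 8 genes, namely S100A10, S100A11, LORICRIN, S100A4, S100A2, S100A16, S100A13 and S100A1. Only SPRR2D was open in hTBLC alone, where the background was 2.37% of genes, and only S100A14 was open in primed alone, where the background was 2.99%. The other 42 members had a start region in neither library, against 16.2% of all protein-coding genes. They were all 19 LCE genes, 10 of 11 SPRR genes, all 4 fused S100 type genes, IVL, and 8 of 16 S100A genes. The reference table gave a start for 49 members, and for LCE1B, SPRR2D and SPRR2E either gene end was used. Among the genes with a start in the table, 8 of 49 members were open in hTBLC, where 81.6% of 15812 genes were, and 9 of 49 in primed, where 82.2% were.

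Promoters of genes with and without a start region are shown to set their CpG and TATA boxes side by side. They run 250 bases before to 50 after the gene start, come from RefSeq with the build GRCh38.p14, and are written 5′ to 3′ on the strand of the gene. Capitals mark every CG dinucleotide (CpG), the site of DNA methylation, and the motif TATAAA (the TATA box) where it begins 25 to 35 bases before the start. The first set holds 1 gene of each class with a start region in neither library. FLG lies at chr1:152325190-152325489 on the minus strand, LCE2A at chr1:152698095-152698394 on the plus strand, IVL at chr1:152908296-152908595 on the plus strand, SPRR2A at chr1:153057463-153057762 on the minus strand and S100A9 at chr1:153357604-153357903 on the plus strand.
FLG: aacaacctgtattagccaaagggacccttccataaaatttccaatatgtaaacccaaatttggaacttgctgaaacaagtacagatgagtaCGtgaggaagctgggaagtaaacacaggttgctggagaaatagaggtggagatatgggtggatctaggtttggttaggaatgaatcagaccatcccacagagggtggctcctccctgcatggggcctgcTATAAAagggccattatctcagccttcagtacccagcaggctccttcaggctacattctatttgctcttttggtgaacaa
LCE2A: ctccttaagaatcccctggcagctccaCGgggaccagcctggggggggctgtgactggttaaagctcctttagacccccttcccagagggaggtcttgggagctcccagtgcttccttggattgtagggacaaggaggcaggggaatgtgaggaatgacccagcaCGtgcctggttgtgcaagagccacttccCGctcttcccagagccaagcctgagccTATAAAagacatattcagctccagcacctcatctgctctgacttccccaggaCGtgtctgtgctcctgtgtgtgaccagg
IVL: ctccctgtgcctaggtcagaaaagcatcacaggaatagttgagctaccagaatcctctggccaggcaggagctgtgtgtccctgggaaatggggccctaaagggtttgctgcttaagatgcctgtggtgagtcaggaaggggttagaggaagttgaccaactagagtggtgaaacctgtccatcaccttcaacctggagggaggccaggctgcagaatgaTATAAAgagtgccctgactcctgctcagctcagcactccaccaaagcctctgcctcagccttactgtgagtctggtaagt
SPRR2A: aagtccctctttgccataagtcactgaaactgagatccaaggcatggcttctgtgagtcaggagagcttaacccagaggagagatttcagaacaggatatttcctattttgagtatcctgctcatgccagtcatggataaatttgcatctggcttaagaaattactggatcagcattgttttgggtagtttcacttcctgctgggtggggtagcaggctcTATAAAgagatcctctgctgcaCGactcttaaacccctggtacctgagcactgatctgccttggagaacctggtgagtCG
S100A9: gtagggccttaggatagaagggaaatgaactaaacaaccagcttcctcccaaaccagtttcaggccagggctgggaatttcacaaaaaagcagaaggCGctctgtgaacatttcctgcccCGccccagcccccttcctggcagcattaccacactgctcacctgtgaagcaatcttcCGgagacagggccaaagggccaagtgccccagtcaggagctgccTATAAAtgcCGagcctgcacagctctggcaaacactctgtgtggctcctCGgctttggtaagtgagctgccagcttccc
The second set holds 3 genes with a start region in both libraries, all on the minus strand. S100A10 lies at chr1:151993810-151994109, S100A11 at chr1:152036955-152037254 and S100A4 at chr1:153545757-153546056.
S100A10: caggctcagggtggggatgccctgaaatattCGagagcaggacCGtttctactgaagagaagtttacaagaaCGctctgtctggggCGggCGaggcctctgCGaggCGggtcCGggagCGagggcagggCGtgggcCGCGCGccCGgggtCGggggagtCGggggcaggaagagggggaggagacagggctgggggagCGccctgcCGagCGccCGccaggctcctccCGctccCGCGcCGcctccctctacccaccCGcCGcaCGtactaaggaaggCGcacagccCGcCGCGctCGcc
S100A11: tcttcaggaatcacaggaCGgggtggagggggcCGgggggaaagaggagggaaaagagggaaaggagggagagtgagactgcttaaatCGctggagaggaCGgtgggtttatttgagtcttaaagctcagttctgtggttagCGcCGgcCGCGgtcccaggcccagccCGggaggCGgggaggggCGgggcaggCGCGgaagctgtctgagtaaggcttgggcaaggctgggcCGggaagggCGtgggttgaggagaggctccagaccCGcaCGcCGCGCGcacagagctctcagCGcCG
S100A4: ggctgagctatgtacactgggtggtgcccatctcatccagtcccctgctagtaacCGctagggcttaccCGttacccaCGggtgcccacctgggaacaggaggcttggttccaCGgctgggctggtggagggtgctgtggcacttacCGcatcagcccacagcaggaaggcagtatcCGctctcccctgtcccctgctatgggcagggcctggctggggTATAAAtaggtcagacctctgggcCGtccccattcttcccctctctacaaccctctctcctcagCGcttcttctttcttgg
Each promoter of the first set carries the TATA box and has between 0 and 5 CpG. S100A10 has 32 CpG and S100A11 has 22, and neither carries TATAAA at this place. S100A4 carries both the TATA box and 8 CpG. The printed promoters are examples and do not stand for their sets. Among 44 promoters of members with a start region in neither library, 22 carry TATAAA at this place, and the median is 2 CpG. Among 12 promoters of members with one in both, 2 carry it, and the median is 8 CpG with a lowest of 3.

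Over all members, 57 promoters of 49 genes were available. TATAAA began 25 to 35 bases before the start in 24 of them (42.1%), against 2.96% of the 22132 promoters of all protein-coding genes in the table. The 24 promoters belonged to 24 genes, and the motif began between 28 and 33 bases before the start, in 21 of them at 29 to 31 bases. It was found in 8 of 9 SPRR promoters, 3 of 4 promoters of the fused S100 type, 6 of 19 LCE promoters and 6 of 23 S100A promoters. Of the 24 genes, 22 had a start region in neither library, and S100A4 and S100A13 had one in both. The median member promoter had 3 CpG, against 21 over all promoters.

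Other motifs were counted on either strand of the same 300 bases. TGANTCA, where N is any base, is a loose form of the AP-1 motif bound by FOS and JUN proteins, whose usual middle base is C or G. It occurred in 15 member promoters (26.3%), against 6.15% of all. It was present in 6 of 9 SPRR promoters, 3 of 4 of the fused S100 type and both IVL and LORICRIN, and in 0 of 19 LCE promoters. The match in the FLG promoter printed above has A in the middle, so these counts are not counts of the usual AP-1 site. GGGCGG, the box bound by SP and KLF proteins, occurred in 8 member promoters (14.0%), against 56.3% of all. ATGCAAAT, the octamer bound by POU factors, was found in 3 member promoters (5.26%), against 1.65% of all, and these were SPRR2A, SPRR2B and SPRR2F. AACCGGTT, a grainyhead-like motif, was found in 0 member promoters and in 0.167% of all. A match of letters describes the sequence and does not show that a factor binds there.

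Few CpG-poor members had a listed start region. Genes were placed in classes by their CpG-richest promoter, and 40 of the 49 members had 0 to 5 CpG. Of these 40, a start region was listed for 2 in hTBLC (5.0%, Wilson interval 1.38 to 16.5%), against 33.4% of the 2652 protein-coding genes in that class. In primed the count was 3 of 40 (7.5%, 2.58 to 19.9%), against 31.7% of the class. Members that also carried TATAAA at its place gave 0 of 22 in hTBLC and 0 of 22 in primed, each with an upper Wilson bound of 14.9%. Of all 281 such genes 24.6% were open in hTBLC and 21.7% in primed. Of the 3 members with 21 or more CpG, S100A10 and S100A11 were open in both libraries and S100A6 in neither, in a class where 97.1% of genes in hTBLC and 97.9% in primed were open. Neighbouring copies share sequence and history, so the members are not independent of each other.

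**Figure D1:**
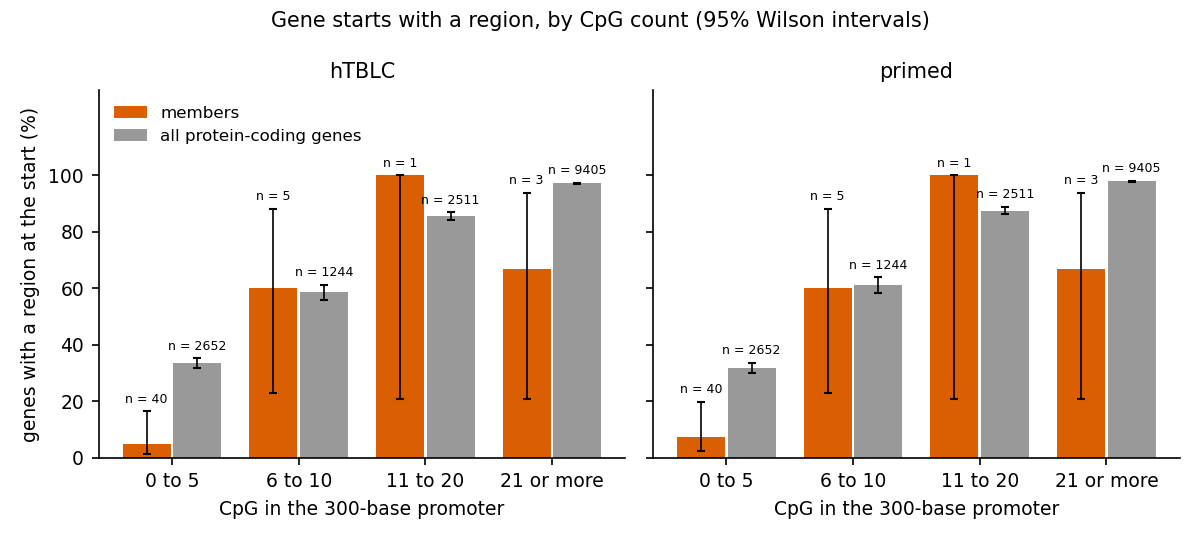
Share of genes with a start region (vertical axis, percent) by the number of CpG in the 300-base promoter (horizontal axis), for hTBLC (left) and primed (right), with members in orange and all protein-coding genes in grey, Wilson 95% intervals and the number of genes above each bar. In the class with 0 to 5 CpG the members stand at 5.0% in hTBLC and 7.5% in primed, and all genes at 33.4% in hTBLC and 31.7% in primed.

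The LCE genes lay in a stretch with no listed region. Their stretch from LCE5A to LCE7A, chromosome 1 positions 152510803 to 152861252, contained 0 hTBLC and 0 primed regions over 350.4 kb. The region-free stretch that encloses it ran from 152461911 to 152869842, or 407.9 kb, and held 22 protein-coding genes. These were the 19 LCE genes with CRCT1, KPLCE and KPRP, which are further small genes of the cluster. No LCE gene had a region in its body or within 1 kb of either end in either library. The LCE2D and LCE2C promoters were 92.7% identical, while the median over 153 LCE pairs was 54.0%. Whether reads that fit several places were kept is not given in the sources used here, and its part in the lack of LCE peaks was not tested.

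Across genes of the fused S100 type, which join a calcium-binding S100 domain to long keratin-binding repeats, no start was open. FLG, FLG2 and the related gene hornerin (HRNR) lay in a further region-free stretch of 250.8 kb, from 152190055 to 152440894, shared with CRNN. Trichohyalin (TCHH), a protein of the hair follicle's inner root sheath, had regions in its body. There the strongest hTBLC region (152110383 to 152111871) had a pileup of 46 (33.7 to 61.4), and the primed region (152110888 to 152112512) had 14 (7.65 to 23.5). Before any scaling for depth, the hTBLC pileup was the higher one and the counting intervals did not overlap. The summits differed, at 152110993 in hTBLC and 152111333 in primed. The local background was also higher, with 4.12 in hTBLC and 1.84 in primed, and its part was not tested. Fold enrichment, which divides by that background, was 9.18 in hTBLC and 5.28 in primed. A second hTBLC region with a pileup of 11 touched the same primed region, so no ratio is given for the gene.

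IVL, the early envelope scaffold, had no region in its body or within 1 kb in either library. LORICRIN, the main protein of the finished envelope, had 1 region in each library, which reached the start window only by its edge. Its summit lay 1822 bp downstream of the start in hTBLC and 1830 bp in primed. The pileup there was 41 (29.4 to 55.6) in hTBLC and 21 (13 to 32.1) in primed, and these intervals overlapped. After scaling for relative depth, hTBLC over primed, by 1.09, the ratio was 1.79 (exact binomial interval 1.03 to 3.18). The local background, which the peak caller estimates from fragments around the peak, was also higher, with a scaled ratio of 1.63. Its part in this and the following ratios was not tested. In bulk ATAC-seq a larger share of cells with an open site and a more open site in each cell cannot be told apart.

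No start of the SPRR genes, whose products bridge other envelope proteins, was open by a transcript start of the reference table. SPRR2D was listed as open in hTBLC through a region at 153039845 to 153040105, near its lower-coordinate end, with a pileup of 12 (6.20 to 21) in hTBLC and no region in primed. The summit lay 243 bp inside that end, and the table gives no strand for this gene. Regions at a like place, near the lower-coordinate end, which is the 3′ end of these minus-strand genes, were listed at 3 other SPRR2 genes. At SPRR2A the summit was 230 bp inside the end and the pileup was 7 in hTBLC, with no primed region. SPRR2F had a pileup of 11 in hTBLC alone, 167 bp inside its end. At SPRR2B the region was primed only, with a pileup of 14, at 189 bp. None of these 4 sites had a region in the other library, and their pileups were between 7 and 14.

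Within 1 kb of an SPRR gene, the highest pileup was beside SPRR1B, a gene induced when keratinocytes differentiate. The region's summit lay 200 bp past the gene's 3′ end in hTBLC and 204 bp past it in primed. Its pileup was 39 (27.7 to 53.3) in hTBLC and 49 (36.3 to 64.8) in primed, with a fold enrichment of 13.5 in hTBLC and 17.9 in primed. The scaled ratio of 0.73 had an interval of 0.47 to 1.13 that included 1. By fold enrichment this was the third strongest of all primed regions in the cluster. Within the annotated SPRR2G gene, upstream of its start in the promoter table, a shared region had a pileup of 24 (15.4 to 35.7) in hTBLC and 39 (27.7 to 53.3) in primed. There the scaled ratio was 0.56 (0.32 to 0.96), and without scaling the interval was 0.35 to 1.05 and included 1. Between SPRR2F and SPRR2G, 3582 bp from SPRR2F in hTBLC, a shared region had a higher pileup, with 66 (51.0 to 84.0) in hTBLC and 67 (51.9 to 85.1) in primed. A second primed region there had a pileup of 30, so no ratio is given. SPRR5 had a region in primed only, with a pileup of 9 inside the gene. SPRR1A, SPRR3, SPRR4 and SPRR2E had no region in the gene or within 1 kb in either library.

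Of the S100A genes with a start region in both libraries, S100A4 had the highest hTBLC pileup and S100A10 the lowest. S100A11, which binds annexin A1 and is made in many tissues, had a region from 152036856 to 152037218 in hTBLC with its summit 27 bp upstream of the start. The pileup was 142 (120 to 167) in hTBLC and 53 (39.7 to 69.3) in primed, well apart and higher in hTBLC. The scaled ratio was 2.45 (1.78 to 3.43), beside a scaled local background ratio of 1.94. In fold enrichment, which divides by that background, the values were 12.5 in hTBLC and 9.09 in primed. S100A10, the annexin A2 partner, lay next to it with a pileup of 39 (27.7 to 53.3) in hTBLC and 37 (26.1 to 51.0) in primed at its strongest region, whose summit lay 1192 bp downstream of the start in hTBLC and 1150 bp in primed. Those 2 values overlapped, and the ratio of 0.96 (0.60 to 1.55) included 1. A second S100A10 region, directly over the start, had the same pileup of 39 in hTBLC and 23 in primed, for a ratio of 1.55 (0.90 to 2.72). The choice between these tied regions moves the ratio of the gene by over 1.5 times, and both intervals include 1.

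S100A4, a calcium sensor linked to cell motility, had the highest pileup of the members in hTBLC, and the region of S100A13 and S100A1 had the highest in primed. At S100A4 it was 201 (174 to 231) in hTBLC and 109 (89.5 to 131) in primed, at summits 634 bp downstream of the start in hTBLC and 599 bp in primed. The hTBLC value was higher, with a scaled ratio of 1.69 (1.33 to 2.15) beside a background ratio of 1.64. A weaker region over the TATA box of the start printed above had a pileup of 49 in hTBLC and 29 in primed. S100A2, a gene of basal epithelial cells, had a pileup of 117 (96.8 to 140) in hTBLC and 58 (44.0 to 75) in primed at a summit 799 bp upstream of its outer start in hTBLC and 811 bp in primed. The ratio there was 1.84 (1.34 to 2.57), beside a background ratio of 1.81. Its other start, nearer the gene's 3′ end, had no region.

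S100A16, which is made in many tissues, has 2 starts in the table, and their ratios lay on either side of 1. At the start with the stronger region the pileup was 78 (61.7 to 97.3) in hTBLC and 68 (52.8 to 86.2) in primed, for a ratio of 1.05 (0.75 to 1.47). The other start had 35 (24.4 to 48.7) in hTBLC and 58 (44.0 to 75) in primed, for a ratio of 0.55 (0.35 to 0.85). S100A13, which takes part in the release of FGF1, and S100A1, a regulator of calcium handling in heart muscle, share a region between their opposed starts. It had a pileup of 150 (127 to 176) in hTBLC and 124 (103 to 148) in primed, with a ratio of 1.11 (0.87 to 1.41) that included 1. At the far start of S100A13, shared with the neighbour CHTOP, the hTBLC region had a pileup of 132 and touched 2 primed regions, with pileups of 88 and 70. The primed region of 70 covers the start itself, and no ratio is given. S100A14, an epithelial S100 gene, was open at its start in primed alone. Its pileup was 19 (11.4 to 29.7), with a fold enrichment of 3.07 and a -log10 q of 4.03, 64 bp upstream of the start.

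**Figure D2:**
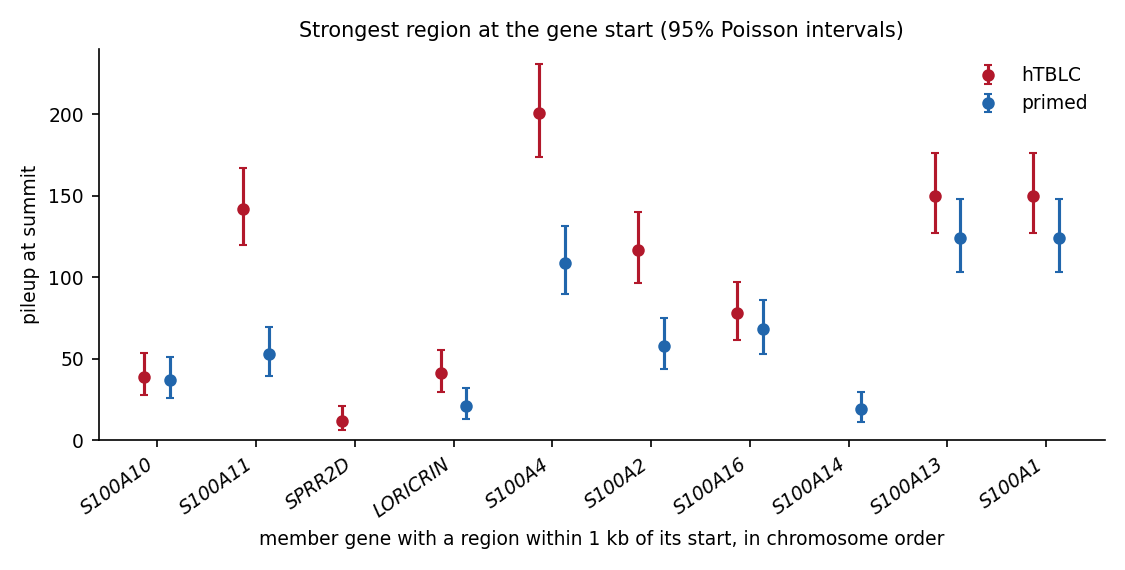
Pileup at the summit of the strongest start region (vertical axis, fragments) for the 10 members with such a region in either library, in chromosome order (horizontal axis), with hTBLC in red to the left of primed in blue and exact Poisson 95% intervals. S100A11, S100A4 and S100A2 lie higher in hTBLC with no overlap of intervals, while S100A10, S100A16 and the region shared by S100A13 and S100A1 overlap.

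At their starts in the promoter table, the inflammatory S100 genes had no listed region. S100A8 and S100A9, which form calprotectin in neutrophils and stressed keratinocytes, S100A12, S100A7 (psoriasin) and S100A7A had no region at these starts in either library. The annotated S100A8 gene is long and reaches upstream of those starts, and it held the strongest library-specific region of the cluster in hTBLC. That region, at 153407275 to 153407647, had a pileup of 44 (32.0 to 59.1) and a fold enrichment of 13.1 in hTBLC and no counterpart in primed. In primed, a region of the same gene at 153394068 to 153394487 had a pileup of 25 (16.2 to 36.9) and a fold enrichment of 9.32. No hTBLC region overlapped it, but a weaker one lay close beside it at 153394588 to 153394815. That hTBLC region had a pileup of 14 (7.65 to 23.5) and a -log10 q of 6.58. All of these regions lie upstream of the S100A8 starts in the promoter table. A shared region inside the annotated S100A7A gene overlaps the upper-coordinate end of S100A8, which is the 5′ end of that minus-strand gene as annotated. It had a pileup of 19 in hTBLC and 16 in primed.

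S100A6 (calcyclin), which is made in many dividing cells, had no region within 1 kb of its start although its promoter has 31 CpG. A weak hTBLC region with a pileup of 19 and a -log10 q of 1.60 lay 841 bp beyond its 3′ end. A stronger region, listed in both libraries, ended just outside the 1 kb limit on the same side. Its summit lay 1304 bp from the gene in hTBLC and 1271 bp in primed. The pileup there was 78 (61.7 to 97.3) in hTBLC and 71 (55.5 to 89.6) in primed, and these intervals overlapped. S100A3, a gene of the hair cuticle, had a region in hTBLC only, with a pileup of 35 and a fold enrichment of 2.84. S100A5 had no start region, and a region in its body had a pileup of 47 in hTBLC and 51 in primed, with a ratio of 0.84. Counting any region in a gene or within 1 kb of it, 14 members had one in both libraries, against 88.4% of all protein-coding genes. There were 5 with one in hTBLC only, against 1.47%, and 3 with one in primed only, against 1.86%. The other 30 members (57.7%) had one in neither, against 8.28%. The hTBLC-only genes were SPRR2D, SPRR2A, SPRR2F, S100A6 and S100A3, and the primed-only genes were SPRR5, SPRR2B and S100A14. S100A6 was placed there by its weak region alone, because the shared region beside it fell outside the 1 kb limit.

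The 8 members with a ratio at the start had a median ratio of 1.4, between 0.96 and 2.45, against a median of 1.02 over 14480 genes. At S100A11 alone hTBLC was at least 2-fold higher, where 2.04% of the 14480 genes were, and 0 members were at least 2-fold lower, where 4.54% were. S100A13 and S100A1 share 1 region, so these are 7 sites.

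Along the whole cluster, hTBLC had 58.9 regions per Mb and primed 55.6, fewer than the adjoining stretches of equal length. The lower-coordinate flank had 90.0 hTBLC and 88.9 primed regions per Mb, and the upper flank had 101.7 hTBLC and 105.0 primed regions per Mb. Regions of the cluster covered 48.7 kb (2.71%) in hTBLC and 44.3 kb (2.46%) in primed. Their spread was uneven, and 5 of 18 bins of 100 kb had 0 regions in both libraries while the fullest had 18 in each. From the lower end of the cluster to TCHH there were 24 hTBLC and 21 primed regions in 206.3 kb, from TCHH to PGLYRP3 28 hTBLC and 29 primed in 1190.8 kb, and from PGLYRP3 to the upper end 54 hTBLC and 50 primed in 402.9 kb. The 2 outer parts, which hold the S100A genes, were thus denser in both libraries than the barrier-gene part between them. Not every S100A stretch was dense. From S100A9 to S100A7 there were 77.8 hTBLC and 58.4 primed regions per Mb, fewer than in either flank.

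**Figure D3:**
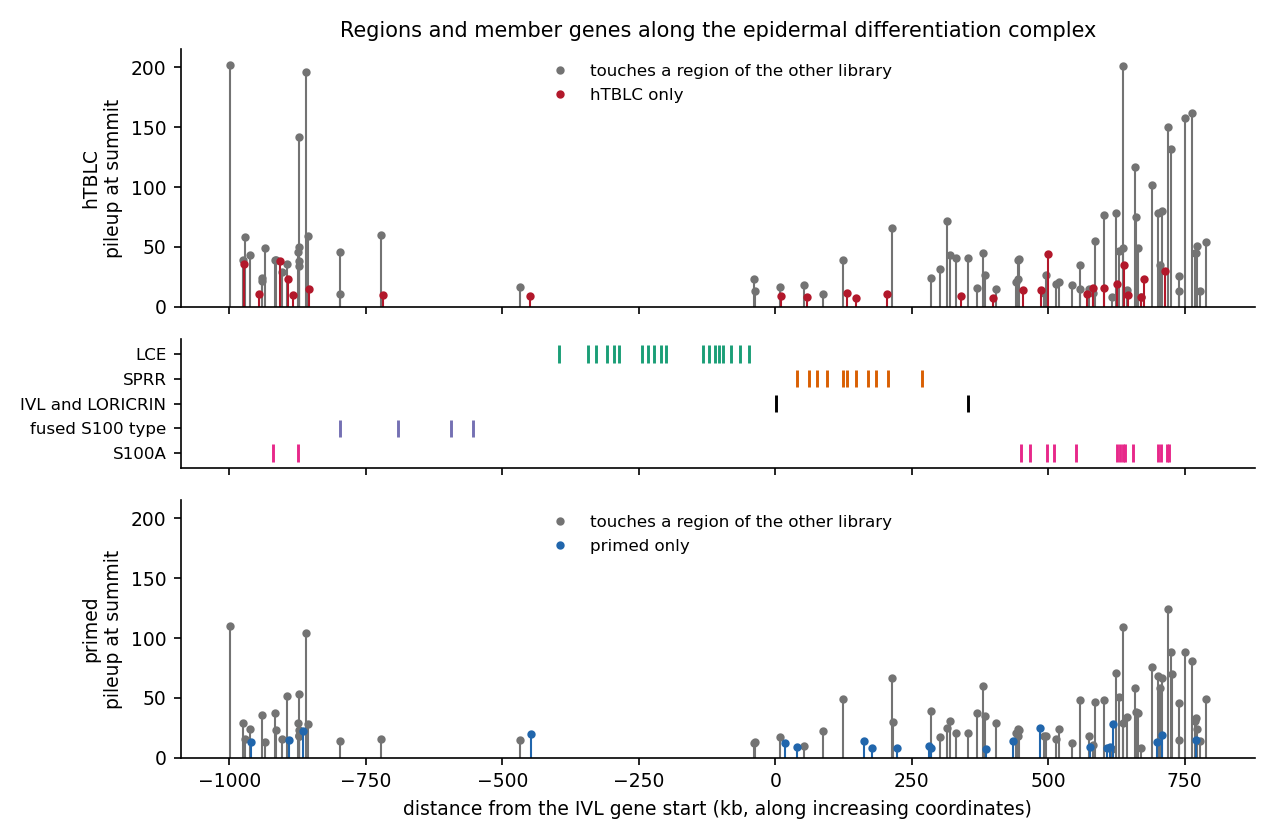
Pileup of each region (vertical axis, fragments) against distance from the IVL gene start (horizontal axis, kb), for hTBLC (top) and primed (bottom), with regions touching the other library in grey and library-only regions in colour; ticks in the middle mark the members by class. The 350.4 kb of the LCE genes are empty in both libraries. The tallest regions stand toward either side, among the S100A genes and at the non-member genes THEM4, SNAPIN and ILF2.

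Most regions of the cluster were listed in both states. An overlap of 1 bp or more with a region from the other library made a region shared. Of 106 hTBLC regions 79 were shared (74.5%, Wilson interval 65.5 to 81.9%), and of 100 primed regions 79 were (79.0%, 70.0 to 85.8%). Over all regions 60.8% of hTBLC and 62.7% of primed ones were shared, and in the flanks the shares were 74.1% of hTBLC and 76.2% of primed regions below the cluster and 80.9% of hTBLC and 79.4% of primed regions above it. The cluster held 27 hTBLC-only and 21 primed-only regions, so hTBLC supplied 56.2% (42.3 to 69.3%) of the library-only regions, against 52.1% over all. That interval includes the value over all regions, which was not so among the top 50000 regions of each library (given below). Library-only regions were weak, with a median pileup of 12 in hTBLC and 13 in primed.

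At a -log10 q of 10 or more, 5 library-only regions were listed in hTBLC and 3 in primed. In hTBLC, besides the one inside S100A8, they lay at 151934998 to 151935692 (pileup 36), at 152001354 to 152002062 (38), at 152015814 to 152016102 (23) and at 153583299 to 153583837 (23). The second of these is 8032 bp from S100A10 and the third is 16546 bp from S100A11. In primed, besides the one inside S100A8, they lay at 152461618 to 152461910 (20), which borders the empty LCE stretch, and at 153526938 to 153527664 (28), which is 7335 bp from S100A6. None of these library-only regions came within 1 kb of a member's start. The primed one inside S100A8 had a weaker hTBLC region close beside it, as given above.

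In the cluster, regions that overlapped 1 to 1 were more often higher than lower in hTBLC. The 70 such regions of the cluster had a median scaled log2 ratio of pileups, hTBLC over primed, of 0.30 (quartiles -0.13 and 0.74), with 47 higher and 23 lower. Over all 139523 regions of this kind the median was -0.13 (quartiles -0.63 and 0.36), with 60715 higher and 78808 lower. In the flanks the median was 0.05 below and -0.07 above the cluster. The scaling moves each log2 ratio by -0.13, and without it the median of the cluster was 0.43. At least 2-fold higher in hTBLC were 5 of 70 (7.14%), against 7.69% of all, and at least 2-fold lower were 4 (5.71%), against 13.3% of all. The interval of the ratio lay above 1 at 18 regions (25.7%), against 11.2% of all, and below 1 at 8 (11.4%), against 17.9% of all. Without scaling it lay above 1 at 22 regions (31.4%), against 14.6% of all, and below 1 at 5 (7.14%), against 14.1% of all. Regions of the cluster were stronger, with a median pileup of 31 in hTBLC and 23 in primed, against 16 and 17 over all. Where the pileups of both libraries summed to 40 or less, the median was -0.13 over 15 cluster regions and -0.13 over all. Above 40 and up to 80 it was 0.54 over 31 cluster regions and -0.19 over all. Above 80 and up to 160 it was 0.07 and -0.16.

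Of the parts split at TCHH and PGLYRP3, the one before TCHH, which holds S100A10 and S100A11, had the highest median ratio. High single ratios also lay elsewhere, among them 3.43 at a region 26308 bp from HRNR and 2.63 at a region 3919 bp from PRR9. Of the 15 regions before TCHH, 13 were higher in hTBLC, against 60715 of all 139523. These 15 had a median log2 ratio of 0.73, and the median log2 ratio of their local background was 0.87. Between TCHH and PGLYRP3 the median was 0.05 over 17 regions, and from PGLYRP3 on it was 0.12 over 38 regions, where the background stood at 0.26. Without the stretch before TCHH the cluster's median was 0.12, with an interval over its 55 regions of -0.13 to 0.41 that includes 0, against 0.06 to 0.57 with it. Regions are not replicates, so these intervals describe the spread among regions only. The background ratio was higher in the same stretches as the ratio of the pileups, and its part was not tested.

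**Figure D4:**
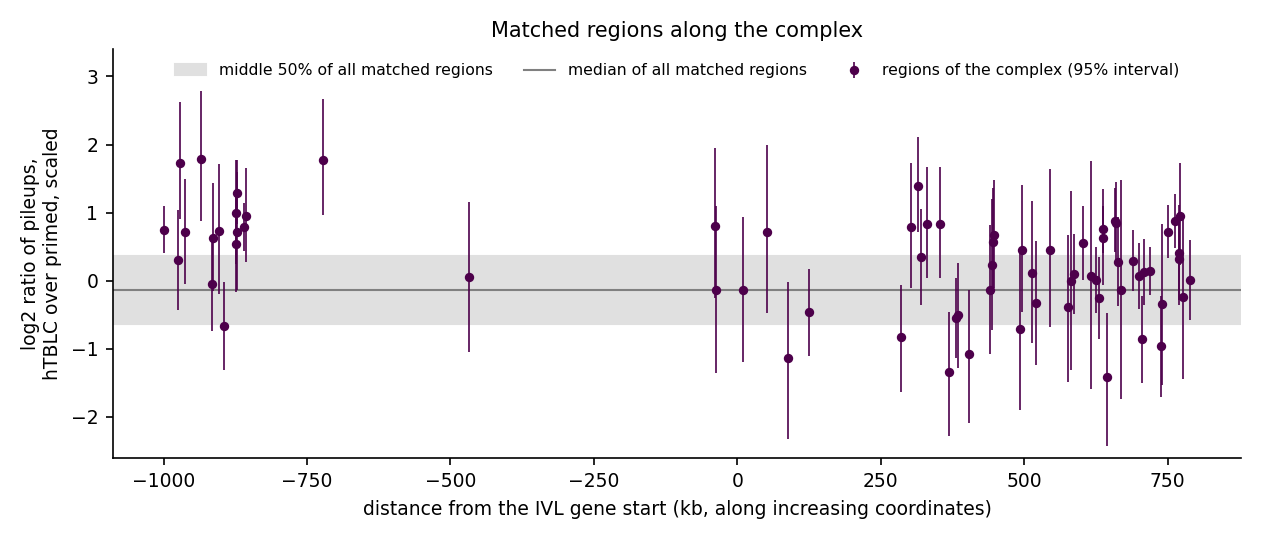
Scaled log2 ratio of pileups, hTBLC over primed (vertical axis), of the 70 regions shared 1 to 1 in the cluster against distance from the IVL gene start (horizontal axis, kb), with exact binomial 95% intervals; the grey band is the middle 50% of all 139523 such regions and the line their median of -0.13. Of the 15 points before TCHH 13 lie above 0, and the LCE stretch has no point.

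The extreme regions, chosen after their values were seen, lay mostly between genes. The highest ratio was 3.45 (1.84 to 6.92), at a summit 9808 bp from S100A10 with a pileup of 49 in hTBLC and 13 in primed. Next came a region 26308 bp from HRNR with 60 in hTBLC and 16 in primed and a ratio of 3.43 (1.95 to 6.38), which stands in the sparse stretch beside the filaggrin genes. Others were a region 27391 bp from THEM4, a neighbour that encodes a thioesterase, with 58 in hTBLC and 16 in primed, and a region 3919 bp from PRR9 with 72 in hTBLC and 25 in primed. The lowest ratio was 0.38 (0.19 to 0.72), 3281 bp from S100A3, with a pileup of 14 in hTBLC and 34 in primed. A region 15942 bp from LORICRIN had 16 in hTBLC and 37 in primed, for a ratio of 0.40 (0.21 to 0.73), and a region 5116 bp from SPRR3 had 11 in hTBLC and 22 in primed, for 0.46 (0.20 to 0.98). Without scaling, the interval at the SPRR3 region was 0.22 to 1.08 and included 1.

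By fold enrichment within each list, the strongest regions of the cluster were largely alike. Among the first 10 of both libraries were a region at an end of THEM4 (20.8 in hTBLC and 18.6 in primed) and a site 7906 bp from S100A16 in hTBLC (20.1 in hTBLC and 19.4 in primed). The starts of SNAPIN and ILF2, a site 23481 bp from S100A6 in hTBLC and the S100A4 region were also in both. The hTBLC list further had the HRNR site named above, with 18.2, and 3 sites near PRR9, with 19.0, 14.8 and 14.2. The primed list further had the SPRR1B site with 17.9, the S100A13 and S100A1 region with 16.2, and sites near S100A11 and PGLYRP3 with 15.4 and 14.8.

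Of a list of 10 other genes of the cluster, 8 had a start region in neither library, against 16.2% of all protein-coding genes. KPLCE, which is not on that list, had one in neither as well. The 8 were RPTN, CRNN, TCHHL1, CRCT1, SMCP, KPRP, LELP1 and PRR9. The peptidoglycan recognition genes PGLYRP3 and PGLYRP4, which encode antibacterial proteins, had one in both. PGLYRP3 had a pileup of 15 (8.40 to 24.7) in hTBLC and 29 (19.4 to 41.6) in primed, lower in hTBLC with a ratio of 0.47 (0.24 to 0.91). PGLYRP4 had 21 in each library. At the upper edge, the widely expressed genes SNAPIN and ILF2 were higher in hTBLC as well. SNAPIN had a pileup of 158 in hTBLC and 88 in primed, for a ratio of 1.64 (1.26 to 2.16), and ILF2 had 162 in hTBLC and 81 in primed, for 1.83 (1.39 to 2.42). Their scaled background ratios were 1.63 and 1.81.

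Partners of the cornified envelope outside the cluster were read by the same rule. Of 7 such genes, 3 had a start region in both libraries, against 78.5% of all protein-coding genes. TGM3 had one in hTBLC only (pileup 28), against 2.37%, and TGM5, CDSN and CSTA had one in neither, against 16.2%. The 3 with a ratio were all at least 2-fold lower in hTBLC, where 4.54% of 14480 genes were, each read from either gene end because the table gave no start. Periplakin (PPL), a plakin that links the envelope to filaments, had 29 in hTBLC and 100 in primed, for a ratio of 0.27 (0.17 to 0.40). Envoplakin (EVPL), its partner, had 19 in hTBLC and 35 in primed, for 0.50 (0.27 to 0.89). Transglutaminase 1 (TGM1), a main cross-linking enzyme of the envelope, had 9 in hTBLC and 19 in primed, for 0.43 with an interval of 0.17 to 1.0 that reached 1. The scaled background ratio was 0.42 at PPL, 0.98 at EVPL and 1.02 at TGM1. At PPL the fold enrichment, which divides by the background, was 6.64 in hTBLC and 11.6 in primed. The part of the background was not tested.

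Regulators of epidermal genes outside the cluster had start regions at a share near that of all genes. Of 16 such factors, 14 had a start region in both libraries, against 78.5% of all protein-coding genes. None of the 16 had one in hTBLC only, against 2.37%, and 2 had one in primed only, against 2.99%, namely TP63, the master factor of stratified epithelium, and ZNF750, a factor of terminal differentiation, each with a pileup of 19. The 10 with a ratio, SATB1 included, had a median of 1.07, and 0 differed at least 2-fold, where 2.04% of all genes were that much higher and 4.54% that much lower. CEBPB was lower in hTBLC, with a pileup of 58 in hTBLC and 91 in primed and a ratio of 0.58 (0.41 to 0.82). Its scaled background ratio was 0.66, and the fold enrichment was 6.94 in hTBLC and 8.10 in primed. SATB1 had 129 in hTBLC and 78 in primed, at summits 1189 bp apart in regions that overlap at their edges, so these values come from different sites and are not compared. KLF4 had 65 in hTBLC and 43 in primed, and its ratio of 1.38 (0.93 to 2.08) included 1. Of the grainyhead-like genes, GRHL1 had 101 in hTBLC and 106 in primed, and its ratio of 0.87 (0.66 to 1.16) included 1. At GRHL2 and GRHL3 the strongest start regions of the libraries did not overlap, so no ratio is given. GRHL3 had 19 in hTBLC and 87 in primed, and GRHL2 had 15 in hTBLC and 87 in primed.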

How the data were processed

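The submitters' processing notes name Bowtie2, Picard, MACS2 and the build hg38, without version, role or setting. How reads were shifted, and what was done with duplicates or multiply mapping reads, is not given in the sources used here. Each library has its own peak list. The authors deposited, for each peak, a fold ratio over local background, a -log10 p-value, a -log10 q-value, a summit offset (unit: other) and a whole-number score, which was not used. Ranks without a line numbered 327 in hTBLC and 252 in primed, and such regions count as absent.

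A whole pileup and a background were solved from the fold and the -log10 p of each peak (Python 3.11.15, NumPy 2.4.6, SciPy 1.17.1, pandas 2.3.3), taking fold as (pileup + 1)/(background + 1) and p from the upper Poisson tail. They were whole within 0.001 in -log10 p for 99.998% of hTBLC and 99.999% of primed peaks, and in 100% of 20000 simulated peaks. Relative depth came from the most frequent lowest background, 1.96 in hTBLC and 1.79 in primed. Total read numbers were not analysed here. Ratios were limited to strongest regions that overlap between the libraries. Shares have Wilson, pileups exact Poisson and ratios exact binomial intervals.

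Gene bounds came from a RefSeq gene table and starts from a RefSeq promoter table (both GRCh38.p14), which holds 15812 of 19839 genes (79.7%). Other genes were read within 1 kb of either end. Promoter identities were computed with Biopython 1.88. No exon annotation was used. Each member with a region in or near it is named, as are the 10 strongest regions of each list and the library-only regions whose -log10 q reached 10. The members, lists, rules and alternatives were chosen with earlier results of these data known.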

Additional observations from a re-analysis of the deposited data

How the results depend on the processing

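Each group has 1 library, so no result has a replicate check. No paired analysis was possible because each group has 1 library with no replicate number. Peaks of weak regions sit near the limits of the lists, and ranks without a line can hide a region. Reads of near-identical copies, such as the LCE2, SPRR2 and S100A7 genes, were counted by rules not stated in the labels. The LORICRIN call rests on the edge of a region in the gene body.

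Members open at the start numbered 17 in hTBLC and 15 in primed with windows of 2500 bp, 19 in hTBLC and 17 in primed anywhere in the gene or within 1 kb, and 2 in hTBLC and 1 in primed without the S100A genes. Members open in hTBLC only numbered 0 where -log10 q reached 5 and 0 where it reached 10, 4 with windows of 2500 bp, 5 anywhere in the gene or within 1 kb, and 0 among genes with a start in the table, an alternative added after the data were seen. Members open in primed only numbered 0 where -log10 q reached 5 or 10, among the top 50000 regions and without the S100A genes, 2 with windows of 2500 bp, and 3 anywhere in the gene or within 1 kb.

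The share of hTBLC regions shared with primed was 84.6% where -log10 q reached 5, 57.5% among the top 50000 regions and 63.2% with a reciprocal overlap of at least 50%, where the share of primed regions was 67.0%. The hTBLC share of library-only regions was 77.3% among the top 50000. The median log2 ratio was between 0.12 and 0.43 under its 5 alternatives. The 0.12, without the stretch before TCHH and added after the data were seen, has an interval over regions of -0.13 to 0.41, which includes 0. The 0.43 is without scaling. The cause of these moves was not tested.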

Other observations

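Stretches of over 150 kb without a region in either library numbered 231, and 336 protein-coding genes lay wholly inside them, 22 of them members. The stretch of the LCE genes held 22 protein-coding genes, which no other of the 231 exceeded. The stretch that equals it, also on chromosome 1 (12784093 to 13356892, 572.8 kb), holds genes of the HNRNPCL and PRAMEF families. By length the LCE stretch is not extreme, since 93 of the 231 are at least as long, itself included. Other stretches with many genes hold further families of near-identical or tandem genes, among them USP17L, olfactory receptor and KRTAP genes.

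The promoters of S100A7A and S100A7 were 96.3% identical and those of SPRR2A and SPRR2F 87.7%, against a median of 51.0% over 120 S100A pairs and 54.8% over 36 SPRR pairs.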
